A study of Mus musculus with 30 samples.

Results

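KH2 mouse embryonic stem cells were compared after 48 h and after 24 h of retinoic acid (RA), so that the values give the net change of the second day. The members are 6 of the 30 arrays of the time course. They were chosen by title: arrays A, B and C of 48 h, and arrays D, E and F of 24 h. The 24 h arrays A to C belong to another array set and were left out. KH2 is an established mouse embryonic stem cell line. Both groups carried the same line, with no other genotype or agent in the labels, and both were in differentiation medium with serum and 0.3 uM RA. Both were grown on feeder cells. Before lysis the cells were trypsinised and replated on gelatin, a step used to part stem cells from feeders. The labels are at odds on whether RNA came from the cells that stuck to the gelatin or from those left in the medium, so feeder RNA may be present in either group. All arrays came from 1 line, and the labels do not say that they came from separate cultures, so a p-value here weighs a difference against the spread of these arrays alone.

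RA is made from vitamin A by dehydrogenases, carried in the cell by Crabp proteins, and cleared by Cyp26 enzymes. It binds nuclear receptors (Rara, Rarb, Rarg) that pair with retinoid X receptors on DNA. In stem cells it switches on the Hox genes, which set position along the body axis and lie in clusters whose order follows that axis, and it moves cells out of pluripotency toward neural and other fates. In the embryo, genes at the front end of each cluster respond before genes at its back end.

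All values are log2 array levels. Array medians lay between 6.36 and 6.38 and lower quartiles between 4.76 and 4.83 over the 6 arrays. Pairs of arrays within a group correlated across genes at 0.9954 to 0.9981, and pairs between groups at 0.9811 to 0.9906. The 18S 5′ control was at 7.99 to 8.35 in the 24 h arrays and at 8.47 to 9.13 in the 48 h arrays, without overlap. The BioB hybridisation control ran from 6.36 to 9.17 at 24 h and from 8.39 to 9.49 at 48 h. The part of these controls in the results was not tested. Of the stem cell markers, Pou5f1, Nanog, Sox2 and Dppa5a had means above 11 log2 at both times. Zfp42 had means of 11.08 at 24 h and 10.88 at 48 h, and Esrrb of 9.53 and 9.66. Markers of other cell types were mixed. At 48 h, visceral endoderm markers ranged from Afp at 5.45 to Sox17 at 9.34, trophoblast markers from Tpbpa at 4.08 to Krt7 at 9.11, and blood and endothelium markers from Ptprc at 3.87 to Cd34 at 7.13. Sox17, Gata3 and Krt7 rose by 1.65, 2.05 and 1.78. Embryonic fibroblasts are the feeder cell type. The mean over 34 measured fibroblast genes was 8.52, 9.07 and 9.16 in the 24 h arrays D, E and F, and 10.71, 10.25 and 11.30 in the 48 h arrays A, B and C. The groups did not overlap and differed by 1.84 on average (exact permutation test, two-sided p = 0.1, the smallest that 3 arrays against 3 can give). At 36 h that mean was 9.22 to 9.76 and at 72 h 10.19 to 11.02. In these bulk samples, more cells of a type and more RNA per cell cannot be told apart.

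Limma called 6515 of 18193 genes (35.8%) between 24 h and 48 h, taking an adjusted p (Benjamini-Hochberg, all genes) below 0.05. Of these, 2909 rose (16.0%) and 3606 fell (19.8%), and the median change over all genes was -0.01. More rises than falls were large. A change of at least 1 log2 was reached by 450 rising genes (2.47%) and 171 falling genes (0.940%). In 3670 genes (20.2%) the lowest 48 h array exceeded the highest 24 h array, and in 4463 genes (24.5%) the order was the opposite. Where a mean lies under 4.73, the lowest lower quartile of any array, levels under 4.73 were set to it, and the change is written as "at least" and is not ranked. The other probe sets of Nt5e, Rxra, Zfp703, Lifr, Ednrb, Ror1, Hoxa9, Msx2, Inhba, Rspo3, Lgr5, Etv4, Aldoc and Mt1 were not called.

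Because the fibroblast genes differed between the groups, a fit with the mean of their list as a covariate was added after these values were seen. Each group has its own mean in that fit, so the covariate's slope comes from differences within groups over all 30 arrays. The slope is then applied to the gap of 1.84 between 48 h and 24 h, which also widens the error of each change. A call lost in that fit can therefore reflect lower precision. The covariate fit called 1468 of 18193 genes, 763 higher and 705 lower, of which 1322 were among the 6515. Of 235 called genes that the naming rule chose, 138 stayed called, 82 were no longer called and 15 turned their sign. Members of the fibroblast list itself are among the 235 and among the 15. The counts that this fit gave are stated beside each list as those with the covariate.

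**Figure D1:**
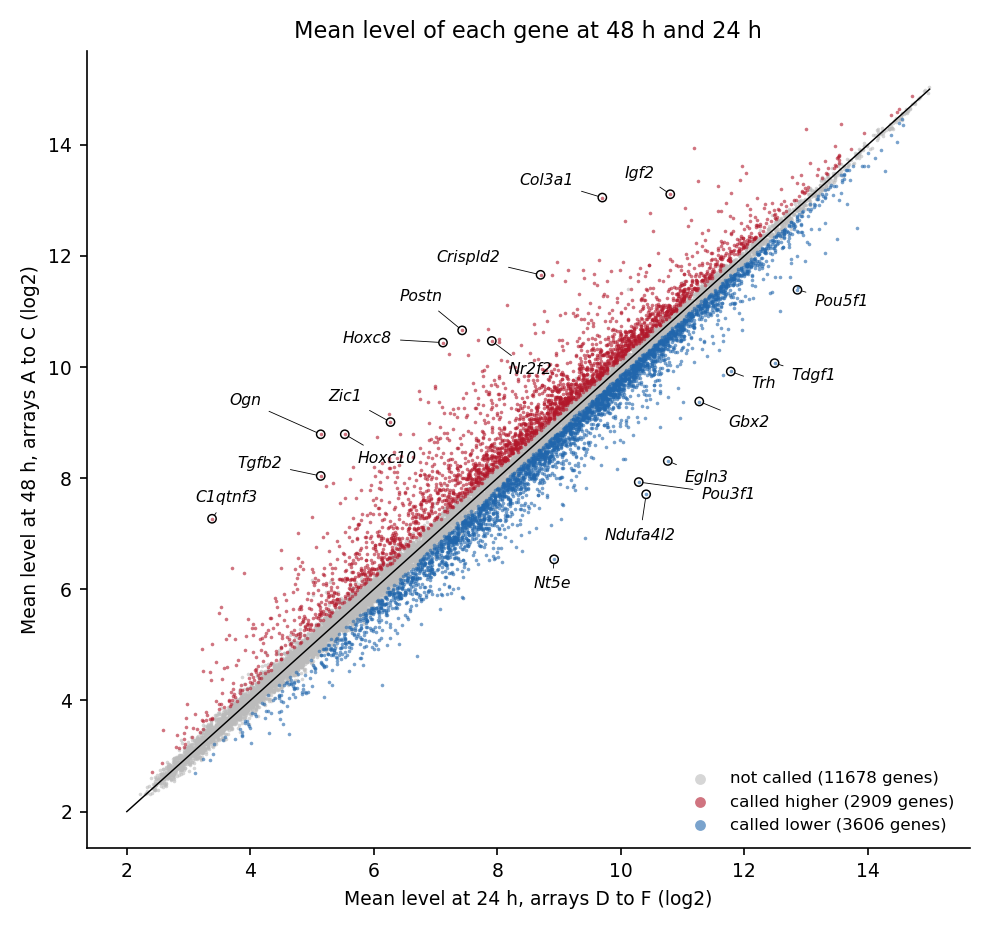
Mean level of each of 18193 genes at 24 h (x axis, log2, n = 3 arrays) and 48 h (y axis, log2, n = 3 arrays), with the line of equal levels. Red and blue points are genes that limma called higher (2909) or lower (3606) at 48 h, grey points were not called, and the ringed genes are named in the text.

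Among the largest rises with no overlap between arrays were genes of the secreted matrix. Ogn (osteoglycin) rose by 3.64, Col3a1 and Col1a1 (fibrillar collagens) by 3.35 and 2.92, Postn (periostin) by 3.23, Ccdc80 by 3.01, Crispld2 by 2.96, Lox (the enzyme that cross-links collagen) by 2.95 and Col12a1 by 2.90. C1qtnf3, a secreted C1q-family protein, rose by at least 2.54 and is not placed in this order. Patterning and signalling genes were there too: Hoxc8 rose by 3.33, Hoxc10 by 3.26 and Tgfb2, a TGF-beta ligand, by 2.90. The falls were led by Ndufa4l2, a hypoxia-induced mitochondrial protein, which fell by 2.69. Next came 2610528J11Rik with -2.49, Egln3 (a prolyl hydroxylase that marks hypoxia factors for decay) with -2.46, Tdgf1 (Cripto, the Nodal co-receptor) with -2.42, Nt5e (the ectonucleotidase CD73) with -2.38 and Pou3f1 (a POU factor of the epiblast) with -2.36. Rbm44, Gbx2, Phlda2, Trh and Tcf15 fell by 1.90, 1.89, 1.87, 1.86 and 1.81. H2-Q2, outside this order, fell by at least 1.40.

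Hox genes changed in both directions on the second day. Of 10 measured genes of paralogue groups 1 to 4, at the head end, 3 rose and 5 fell, with a median change of -0.37. Of 9 genes of groups 5 to 8, 4 rose and 3 fell (median 0.11), and of 14 genes of groups 9 to 13, 5 rose and 2 fell (median 0.14). Every measured Hoxc gene of groups 5 to 10 rose, whereas all called Hoxb genes (Hoxb1, Hoxb2, Hoxb4, Hoxb5, Hoxb6, Hoxb9 and Hoxb13) fell. Over all genes tested the shares were 16.0% and 19.8%. With the covariate, groups 1 to 4 had 1 higher and 4 lower, groups 5 to 8 had 2 and 3, and groups 9 to 13 had 3 and 1.

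Hoxc8, a gene of the trunk, stood at 6.68, 6.99 and 7.68 in the 24 h arrays and at 10.67, 10.52 and 10.15 in the 48 h arrays. The lowest 48 h array lay well above the highest 24 h array. The change was 3.33 ± 0.22 (SE, limma adjusted p = 2.7e-11), a 10.0-fold difference. Hoxc10, a gene of the lumbar and hindlimb level, went from 5.28, 5.62 and 5.69 to 8.66, 9.11 and 8.60, a change of 3.26 ± 0.22 (SE, limma adjusted p = 5.2e-11). Hoxc9, its neighbour in the cluster, went from 7.44, 7.66 and 7.75 to 9.69, 9.75 and 9.70, a change of 2.10 ± 0.12 (SE, limma adjusted p = 3.9e-12). The 3 arrays at 48 h were closer together for Hoxc9 (SD 0.03) than for Hoxc8 (SD 0.27) or Hoxc10 (SD 0.28).

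Smaller rises were those of Hoxd8 (1.57), Hoxc6 (1.18), Hoxd3 (1.15), Hoxd9 (0.96), Hoxd1 (0.78), Hoxc5 (0.54), Hoxa9 (0.53), Hoxa2 (0.35) and Hoxc13 (0.30). The calls of Hoxc5, Hoxa9, Hoxa2 and Hoxc13 ended under at least 1 other setting. Hoxa4 and Hoxb4 led the Hox falls. Hoxa4 was at 9.93, 10.02 and 10.02 at 24 h and at 8.78, 8.66 and 8.59 at 48 h, a change of -1.31 ± 0.10 (SE, limma adjusted p = 2.1e-10). Hoxb1, at the front end of its cluster, fell from 12.94, 13.02 and 12.97 to 11.92, 12.01 and 11.80, by 1.07 ± 0.12 (SE, limma adjusted p = 2.7e-07). Both groups were tight and clearly apart. Hoxb4, Hoxa3, Hoxb5, Hoxb2, Hoxb6, Hoxb9, Hoxb13 and Hoxa5 fell by 1.24, 1.01, 0.68, 0.67, 0.64, 0.60, 0.56 and 0.49. Hoxa5 was at 0.06 when all 24 h arrays, A to F, were taken as 1 group.

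The other 11 measured Hox genes were not called. Hoxb3, Hoxc4, Hoxa7 and Hoxa10 had changes of -0.07, -0.06, 0.11 and -0.47 and overlapping arrays. Hoxa13, Hoxd10, Hoxd11 and Hoxd12 had means under 4.73 at both times. Of the 8 measured TALE cofactors, which bind DNA with Hox proteins, Meis1 and Meis3 rose by 0.93 and 0.66 and none fell. The caudal genes Cdx1 and Cdx2, which act upstream of posterior Hox genes, had changes of -0.28 and 0.22 and were not called, and Cdx4 was under 4.73 throughout.

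**Figure D2:**
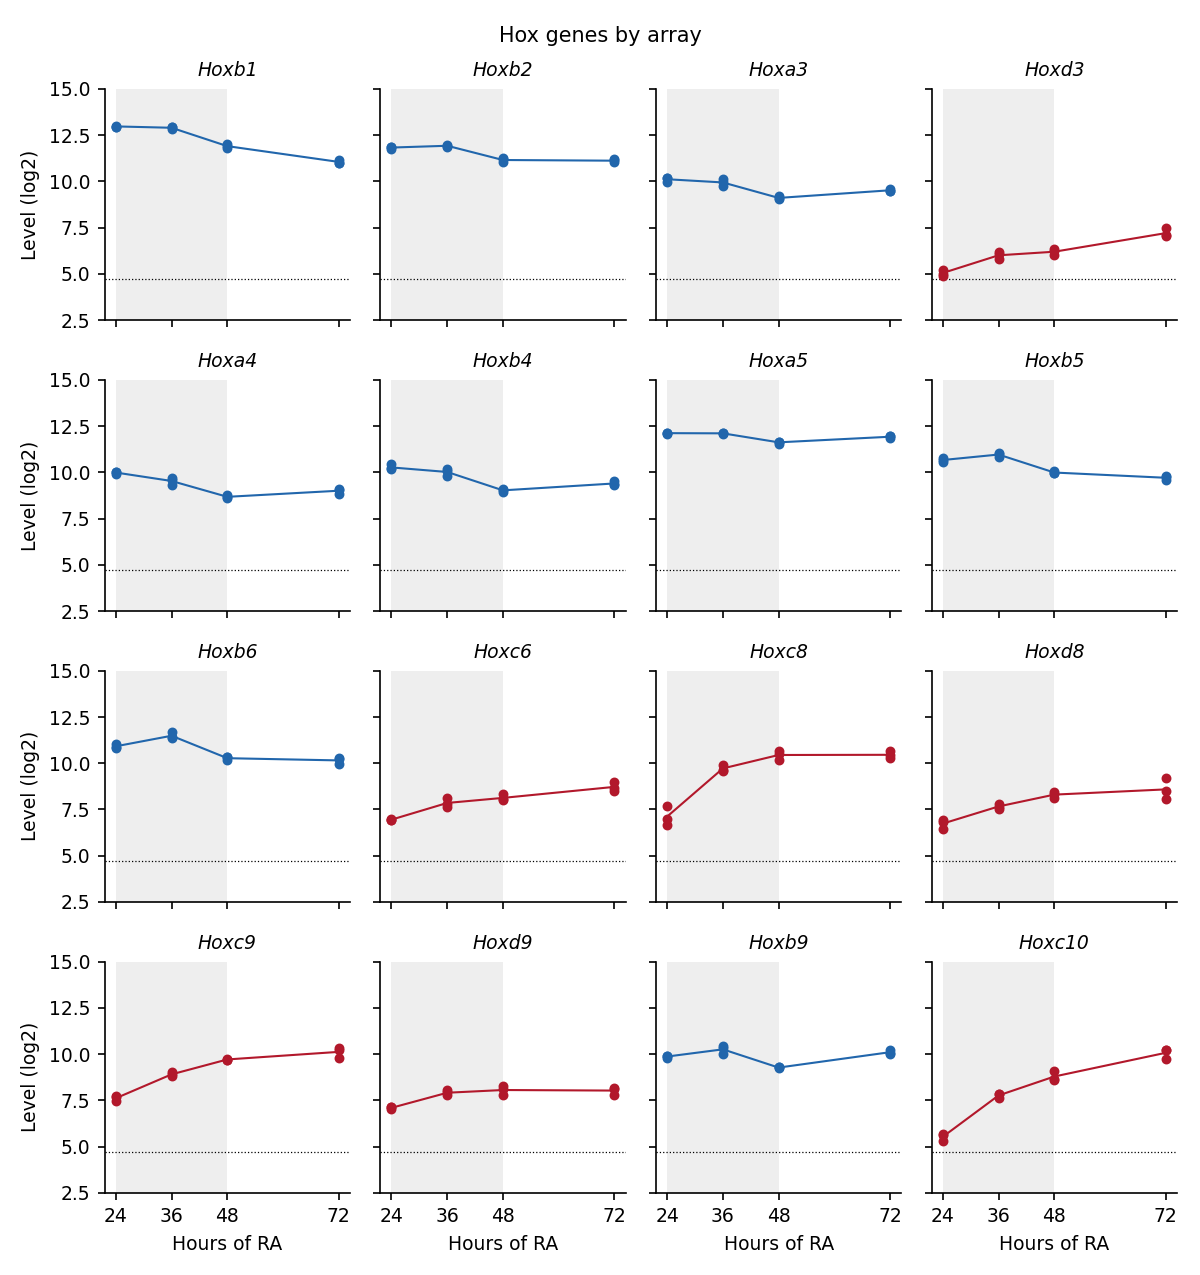
Level of 16 Hox genes in each array (points, log2) at 24 h, 36 h, 48 h and 72 h of RA (x axis), with lines through the group means of 3 arrays, red for genes called higher and blue for genes called lower at 48 h than at 24 h. The grey band is the second day, the dotted line is 4.73 log2, and the Hoxc and Hoxd panels rise through the band while Hoxb1 and Hoxb9 fall in its later part.

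The retinoid genes changed in both directions. Of 18 measured receptors, carriers and enzymes, 7 rose and 5 fell, and the median change was 0.00. With the covariate 6 were higher and 1 lower. Of the uptake and carrier genes, Stra6, the retinol importer, rose by 1.07 ± 0.10 (SE, limma adjusted p = 8e-09), and Crabp1, a cytoplasmic RA carrier, by 1.18 ± 0.12 (SE, limma adjusted p = 2.7e-08). Crabp1 stood at 9.59, 9.59 and 9.48 at 24 h and at 10.79, 10.75 and 10.67 at 48 h, with no overlap. Crabp2, the carrier that passes RA to its receptors, had a change of 0.00. Rdh10, which makes retinal from retinol, rose by 1.06, and Aldh1a1, which makes RA from retinal, rose by at least 0.85, from a level under 4.73. Aldh1a2, the main RA-making enzyme of the embryo, fell by 0.45, a call that ended when all 24 h arrays were taken as 1 group. The clearing enzyme Cyp26b1 rose by 1.04, while Cyp26a1, already at 12.65 to 12.89 at 24 h, had a change of 0.08 and was not called.

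Among the receptors, Rarb rose while Rara and Rarg fell. Rarb was at 8.71, 9.13 and 8.90 at 24 h and at 9.71, 9.68 and 9.53 at 48 h, a rise of 0.73 ± 0.12 (SE, limma adjusted p = 3.1e-05). Rarg fell from 10.40, 10.44 and 10.30 to 9.43, 9.53 and 9.60, by 0.86 ± 0.07 (SE, limma adjusted p = 2.6e-09), and Rara fell by 0.46. All arrays of each gene kept to their own side. Of the partner receptors, Rxrb fell by 0.27, Rxrg by 0.41 and Rxra rose by 0.23. Dhrs3, Lrat, Rbp4 and Aldh1a3 were not called.

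Rarb and Cyp26a1 are shown because their promoters, among those of the retinoid genes, matched the pattern searched for a textbook RA response element. Only Rarb was called (the difference between the changes was not tested). The element is a direct repeat of half-sites, searched here on both strands as GTTCA, 6 open positions and GTTCA again, where the open positions cover the spacer and the variable first base of a half-site. The lines give the 250 bases before each gene's start, 5′ to 3′ on the gene's strand, from RefSeq on GRCm38.p6, with the match in capitals. Rarb lies on the minus strand at chr14:16575477-16575726 and Cyp26a1 on the plus strand at chr19:37697558-37697807.
Rarb: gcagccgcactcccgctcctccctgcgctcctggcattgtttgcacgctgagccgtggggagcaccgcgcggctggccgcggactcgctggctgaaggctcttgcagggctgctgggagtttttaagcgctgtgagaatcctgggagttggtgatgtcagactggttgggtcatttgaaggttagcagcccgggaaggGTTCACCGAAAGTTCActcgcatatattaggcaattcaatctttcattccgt
Cyp26a1: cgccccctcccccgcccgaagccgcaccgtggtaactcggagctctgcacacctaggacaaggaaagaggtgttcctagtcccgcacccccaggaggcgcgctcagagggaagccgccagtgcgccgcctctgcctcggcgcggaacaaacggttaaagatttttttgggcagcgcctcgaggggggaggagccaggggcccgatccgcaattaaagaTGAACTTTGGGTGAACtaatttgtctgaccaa
The match lay 52 to 37 bases before the start of Rarb, on the gene's strand, and 32 to 17 bases before that of Cyp26a1, on the opposite strand. Of 27025 promoters in the table, 18 (0.0666%) held the motif, against 2 of 15 retinoid genes with a promoter there. Among genes tested 7 of 14452 (0.0484%) held it, among genes called higher 1 of 2280 (0.0439%) and among genes called lower 0 of 2888. The list was drawn up for retinoid genes, so its share does not bear on the changes measured here. Other forms of the element were not searched.

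Other known RA targets outside the Hox clusters also went both ways, with 10 of 21 measured higher, 7 lower and a median of 0.33. With the covariate 7 were higher and 4 lower. The orphan nuclear receptors Nr2f2 and Nr2f1 (COUP-TFs) rose most. Nr2f2 was at 7.73, 8.00 and 7.98 at 24 h and at 10.34, 10.54 and 10.54 at 48 h, a change of 2.57 ± 0.13 (SE, limma adjusted p = 2.2e-13), or 5.92-fold. Nr2f1 rose by 2.06. Sox17, an endoderm factor, rose by 1.65, Tshz1 by 1.35, Tgm2 (a transglutaminase) by 1.30 and the zinc finger corepressor Zfp503 by 1.29. Its relative Zfp703 fell by 0.40. Stra8, needed for entry into meiosis, fell by 0.73 from a high level of 13.55 to 13.81. The neuron-gene repressor Rest fell by 0.91.

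Many pluripotency genes fell, but not evenly. Of 37 measured core and naive genes 23 fell and 2 rose, with a median of -0.42. With the covariate 11 were lower and 3 higher (median -0.17). Tdgf1 stood at 12.59, 12.40 and 12.48 at 24 h and at 9.91, 10.35 and 9.96 at 48 h, a change of -2.42 ± 0.12 (SE, limma adjusted p = 4.2e-13), or 5.34-fold. Pou5f1 (Oct4) stood at 12.98, 12.84 and 12.75 and then at 11.10, 11.46 and 11.60, a change of -1.47 ± 0.12 (SE, limma adjusted p = 9.2e-10), or 2.77-fold. Trh, Fgf4, Eras, Utf1, Klf2, Nr0b1 and L1td1 fell by 1.86, 1.61, 1.39, 1.29, 1.29, 1.19 and 1.10. None of these genes had overlapping arrays.

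Several factors of the naive state were not called over the same day. Nanog was at 12.39, 12.43 and 12.25 at 24 h and at 12.29, 12.51 and 12.11 at 48 h, and the groups overlapped (change -0.05, limma adjusted p = 0.7). Esrrb, Tfcp2l1, Tbx3, Prdm14, Zfp42 and Dppa2 were likewise not called, with changes of 0.12, 0.21, 0.24, -0.02, -0.20 and 0.07. Sox2, shared by stem cells and neural progenitors, fell by 0.59. Lifr, the receptor for the stem cell cytokine LIF, rose by 0.37. Stat3, which acts under it, rose by 0.27 on the probe set used and was lower on another of its probe sets.

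The formative and primed epiblast list had 12 of 21 members lower and 2 higher, with a median of -0.53. With the covariate 10 were lower and 1 higher. Pou3f1 was at 10.27, 10.31 and 10.28 at 24 h and at 8.11, 8.08 and 7.61 at 48 h, a change of -2.36 ± 0.11 (SE, limma adjusted p = 1.3e-13). Tcf15, a bHLH factor of the epiblast and somites, fell by 1.81, Fgf15 by 1.08, the FGF-induced factor Etv4 by 0.91 and the de novo DNA methyltransferase Dnmt3a by 0.88. Otx2, a factor of epiblast and forebrain, fell by at least 0.53. The demethylating enzymes Tet1 and Tet2 fell by 0.95 and 0.63.

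**Figure D3:**
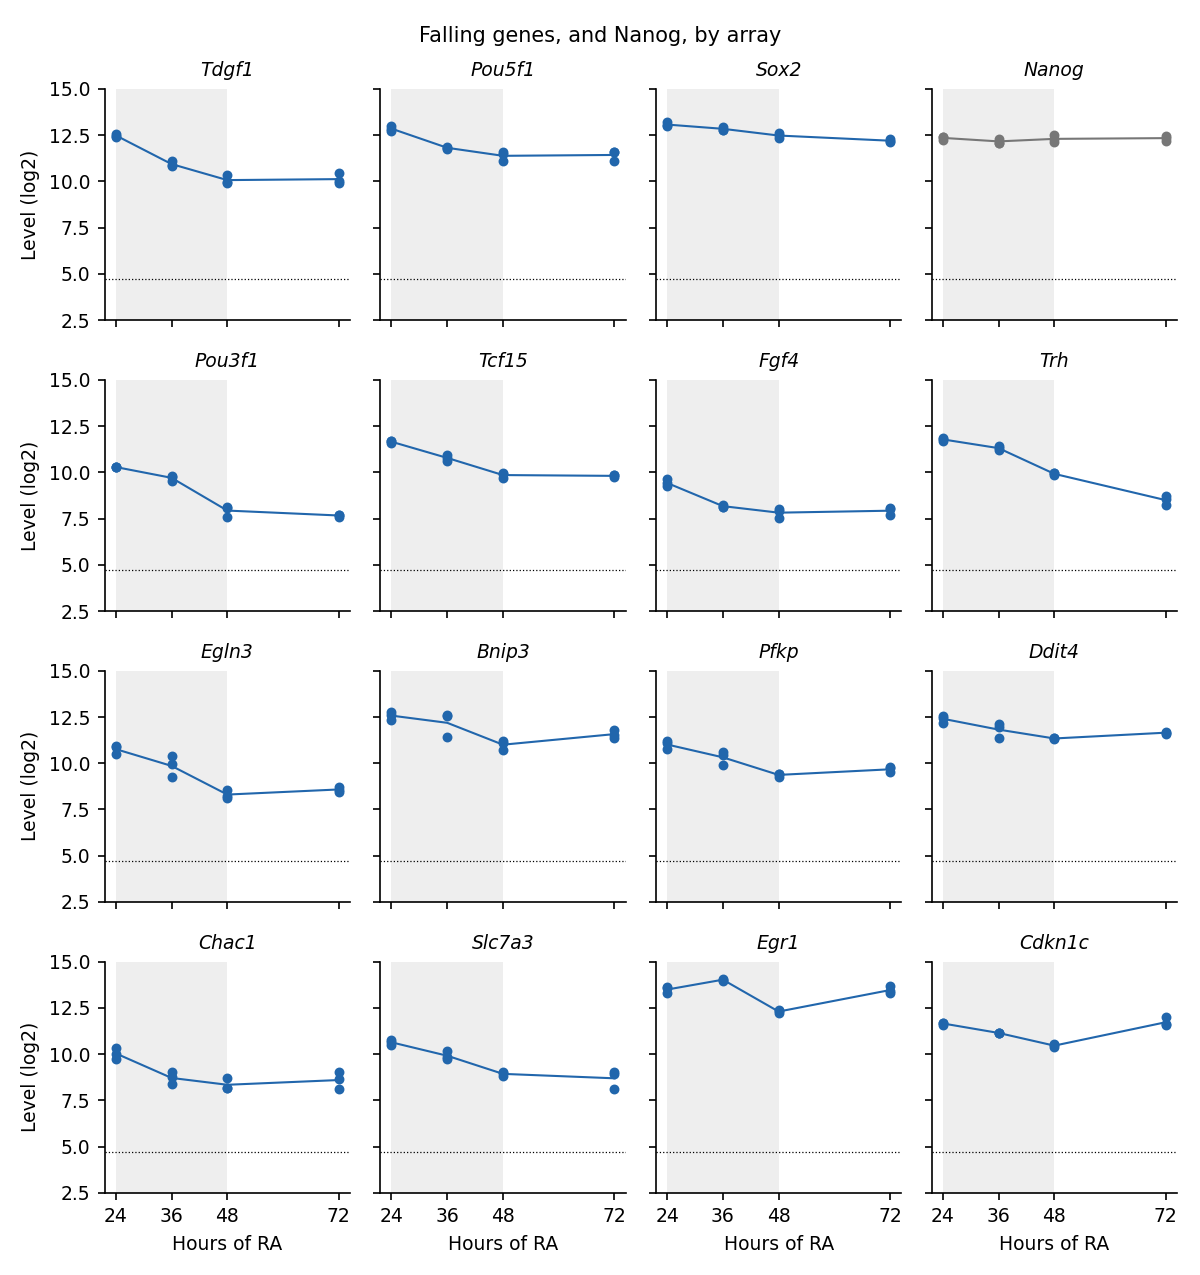
Level of 16 genes in each array (points, log2) at 24 h, 36 h, 48 h and 72 h of RA (x axis), with lines through the group means of 3 arrays; blue marks genes called lower at 48 h than at 24 h and grey marks Nanog, which was not called. The grey band is the second day and the dotted line is 4.73 log2; Tdgf1 and Fgf4 fell mainly before 36 h, while Egr1 fell after 36 h from a peak.

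In the FGF and ERK feedback list 12 of 25 fell and 6 rose (median -0.25), and with the covariate 6 were lower and 1 higher. The ligands Fgf4, Fgf15 and Fgf8 fell, the last by 0.67, as did the feedback inhibitors Spry4 and Spred1 by 0.87 and 0.51, while Spry1 rose by 0.92. In the Wnt list 21 of 38 rose and 5 fell (median 0.52), and with the covariate 12 were higher and 4 lower. Rspo3, a ligand that amplifies Wnt signals, was at 4.91, 4.91 and 5.19 at 24 h and at 7.19, 7.73 and 7.02 at 48 h, a rise of 2.31 ± 0.19 (SE, limma adjusted p = 1e-09). Its receptor Lgr5 rose by at least 1.98. Wnt5a, a ligand of the non-canonical branch, rose by 1.93 and its receptor Ror1 by 1.65. The target genes Sp5 and Axin2 rose by 1.12 and 0.52, and the receptor Fzd5 fell by 1.14.

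Of 37 genes of the BMP, Nodal and TGF-beta pathways, 22 rose and 4 fell (median 0.24), and the 4 that fell were Tdgf1, Lefty1, Gdf3 and Skil. With the covariate 8 were higher and 3 lower. Tgfb2 was at 4.98, 5.05 and 5.40 at 24 h and at 8.04, 7.96 and 8.13 at 48 h, a rise of 2.90 ± 0.17 (SE, limma adjusted p = 7.7e-12). Fst (follistatin, which binds activin) rose by 2.84, Inhba (an activin subunit) by 2.02, Tgfb3 by 1.87 and the BMP target Msx2 by 1.85. Nodal itself had a change of -0.13 and was not called. In the hedgehog list, 8 of 15 rose and 2 fell (median 0.32), and the 2 that fell were Gli1 (-1.24) and Ptch1 (-1.12), the transcriptional readouts of the pathway. Both lay lower in every 48 h array. With the covariate 5 of this list were higher and 2 lower. The co-receptors Gas1 and Boc rose by 1.51 and 1.02 and the ligand Shh by 0.59.

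Neural patterning genes rose in part and neuron genes did not rise as a group. Of 30 genes of hindbrain and spinal cord patterning 13 rose and 7 fell (median 0.21), and with the covariate 6 were higher and 4 lower. Zic1, a dorsal neural tube factor, was at 6.17, 6.19 and 6.46 at 24 h and at 9.02, 9.10 and 8.89 at 48 h, a rise of 2.73 ± 0.18 (SE, limma adjusted p = 2.8e-11). Pax3, also dorsal, rose by 1.41. The ventral factors Olig1 and Olig2 fell by 1.59 and 0.71, and Gbx2, of the anterior hindbrain, fell by 1.89. Egr2 (Krox20) fell by 1.05.

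Of 22 neural progenitor genes 13 rose and 3 fell (median 0.40), and with the covariate 5 were higher and 2 lower. Sox9 rose by 1.92 and Cdh2 (N-cadherin) by 1.58, but the defining markers Sox1 and Pax6 were not called (0.16 and 0.15). Of 31 neuronal genes 6 rose and 9 fell (median 0.01), and with the covariate 1 was higher and 5 lower. Ina, Elavl3 and Stmn2, which code for an intermediate filament, an RNA-binding protein and a tubulin regulator of neurons, fell by 0.90, 0.68 and 0.61, and Tubb3 had a change of 0.03. Dpysl3 rose by 1.95. In the axon guidance and adhesion list 24 of 39 rose and 3 fell (median 0.71), led by Cdh11 (2.80), Nrp1, the semaphorin receptor neuropilin-1 (2.66), and Cxcl12 (1.99). Embryonic fibroblasts are known to express Cdh11, Nrp1 and Cxcl12 as well, and with the covariate 11 of the list were higher and 1 lower. Epha3, an Eph receptor, rose by at least 0.96 and its ligand Efna5 by 1.39, while Epha2 and Efnb1 fell by 0.92 and 0.74.

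In the neural crest and placode list 14 of 23 rose and 3 fell (median 0.59), and with the covariate 9 were higher and 1 lower. Ednrb, the endothelin receptor of migrating crest, was at 6.90, 7.59 and 7.34 at 24 h and at 9.28, 9.17 and 9.28 at 48 h, a rise of 1.97 ± 0.16 (SE, limma adjusted p = 9.4e-10). Tfap2b rose by at least 1.57, Ets1 by 1.74 and Twist1 by 1.56. Twist1 is also a member of the fibroblast list. The crest regulators Sox10 and Tfap2c fell by 0.41 and 0.98, and Foxd3 had a change of 0.01.

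In the lists of other lineages some members rose and their relatives did not. Meox1 and Hand2, mesoderm factors, rose by 1.76 and 2.52, while Mesp1 and Tbx6 had changes of -0.04 and 0.05. Of 37 genes of primitive streak and mesoderm, 11 rose and 5 fell (median 0.14), and with the covariate 4 were higher and 2 lower. Gata3 rose by 2.05 and the simple epithelial keratin Krt7 by 1.78. The list of trophoblast and simple epithelium had 10 of 24 higher and 4 lower (median 0.25), and 10 higher and 1 lower with the covariate (median 0.45). The trophoblast factor Elf5 was under 4.73 at both times. In the list of endoderm and visceral endoderm 10 of 28 rose and 5 fell (median 0.12), and with the covariate 5 were higher and 1 lower. Sox17, Foxa1 and Dab2 rose by 1.65, 0.70 and 0.85, whereas the serum proteins Afp and Ttr were not called and Apoa1 fell by 0.50.

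Matrix genes carried the largest shift of any list. Of 34 measured embryonic fibroblast genes 33 rose and none fell, with a median change of 1.88. The exception was S100a4 (1.28, not called). Of 19 genes of parietal endoderm and basement membrane 17 rose and none fell (median 1.00), among them Plat (1.71), Col4a2 (1.58), Col4a1 (1.45) and Lama1 (1.49). The Col4a1 and Col4a2 chains form the network collagen of basement membranes.

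Arrays of 1 group lay far apart in several fibroblast genes. Col3a1 was at 9.04, 9.99 and 10.08 in 24 h D, E and F and at 12.94, 12.50 and 13.73 in 48 h A, B and C, a rise of 3.35 ± 0.31 (SE, limma adjusted p = 8.8e-09). Postn was at 6.16, 7.97 and 8.16 and then at 11.11, 9.36 and 11.50, a rise of 3.23 ± 0.57 (SE, limma adjusted p = 8e-05). Array D was lowest at 24 h for both genes, and array C was highest and array B lowest at 48 h. Col6a3 followed the same order, at 6.90, 8.05 and 8.40 and then 9.44, 8.85 and 11.57, and its call (2.17) ended without 48 h C. Tgfb2, in contrast, spanned only 7.96 to 8.13 at 48 h and Nr2f2 only 10.34 to 10.54. Array D was nevertheless lowest at 24 h for Tgfb2, Nr2f2, Hoxc8 and Hoxc10 as well. For Tgfb2 array C was also highest and array B lowest at 48 h.

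The covariate is the mean of the fibroblast list, so the average change of that list was fixed at 0.00 in advance. Its median was then 0.00, with 8 higher and 5 lower, a split around that fixed average. With the covariate, the basement membrane list had 10 higher and 1 lower. Postn, Lox and Col1a1, members of the fibroblast list, had changes of -0.82, -0.12 and -0.67, none called, and Col6a3 was called with -2.31. Ogn had 0.63 and was not called, and Inhba, Sema3a and Thbd had changes of -0.06, -0.02 and -0.56. Hoxc8, Hoxc10, Tgfb2, Nr2f2, Zic1 and Crispld2 stayed called, with 2.79, 2.92, 2.12, 2.44, 2.29 and 2.34. Tdgf1, Pou5f1 and Pou3f1 stayed called too, with -2.01, -1.52 and -2.10. The part of feeder cells in these changes was not tested beyond this.

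**Figure D4:**
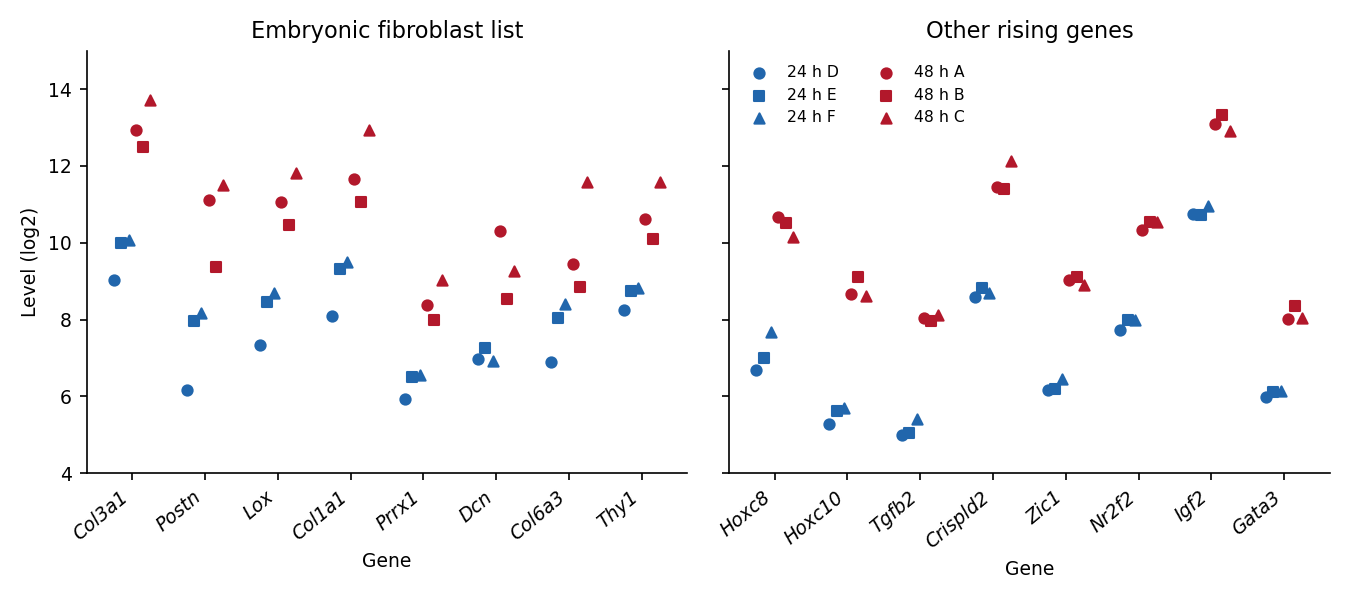
Level (y axis, log2) of 8 genes of the fibroblast list, left, and 8 other rising genes, right, in each of the 6 arrays compared; blue is 24 h, red is 48 h and the symbol marks the array. In the left panel 48 h C (triangle) is highest in 7 of the 8 genes and 24 h D (circle) lowest in 7 of the 8. The points of most genes in the right panel lie closer together at 48 h. At 24 h the points of Hoxc8 lie further apart than those of Dcn or Thy1.

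Of 31 genes of glycolysis and the hypoxia response 21 fell and 3 rose, with a median of -0.39. With the covariate 5 were lower and 1 higher (median -0.20), so most of these calls ended. Egln3 was at 10.91, 10.87 and 10.51 at 24 h and at 8.22, 8.56 and 8.14 at 48 h, a change of -2.46 ± 0.24 (SE, limma adjusted p = 1.4e-08). Ndufa4l2, which is not in the list, was at 10.55, 10.66 and 10.01 and then at 7.76, 7.84 and 7.53, a change of -2.69 ± 0.27 (SE, limma adjusted p = 3.1e-08). In both genes every 48 h array lay below every 24 h array by more than the spread within a group. Aldoc and Pfkp, glycolytic enzymes of the brain and platelet types, fell by 1.76 and 1.64, Bnip3, a mitophagy receptor, by 1.58, Pdk1, which holds pyruvate back from mitochondria, by 1.29, Slc16a3, a lactate exporter, by 1.10 and Ddit4, an inhibitor of mTOR, by 1.06. Pgk1 and Ldha, also in the list, fell less, by 0.39 and 0.34. Vegfa had a change of -0.10 and Car9 rose by 0.86.

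ACGTG is a form of the core that hypoxia factors bind. The promoters of 3 falling genes are printed with each match to ACGTG, on either strand, in capitals. Other forms of the core were not searched and are not marked. Each line holds 250 bases before the start on the minus strand of GRCm38.p6, from RefSeq: chr12:54203875-54204124 for Egln3, chr7:138909507-138909756 for Bnip3 and chr10:59951771-59952020 for Ddit4.
Egln3: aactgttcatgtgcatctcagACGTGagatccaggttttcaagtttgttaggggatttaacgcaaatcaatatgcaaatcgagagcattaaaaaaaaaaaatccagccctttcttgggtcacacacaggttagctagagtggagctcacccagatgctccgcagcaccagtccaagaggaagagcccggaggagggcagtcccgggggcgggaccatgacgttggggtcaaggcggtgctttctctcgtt
Bnip3: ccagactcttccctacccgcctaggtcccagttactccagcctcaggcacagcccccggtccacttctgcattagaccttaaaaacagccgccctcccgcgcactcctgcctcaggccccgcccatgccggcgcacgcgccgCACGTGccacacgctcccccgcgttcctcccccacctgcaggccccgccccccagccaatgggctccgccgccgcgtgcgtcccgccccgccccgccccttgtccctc
Ddit4: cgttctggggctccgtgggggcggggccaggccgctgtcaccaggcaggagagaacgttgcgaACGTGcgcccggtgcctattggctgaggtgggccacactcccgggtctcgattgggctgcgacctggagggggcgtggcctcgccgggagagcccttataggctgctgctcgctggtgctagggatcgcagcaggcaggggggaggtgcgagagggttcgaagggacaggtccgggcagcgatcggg
The match of Bnip3 is a palindrome read on both strands, 108 to 103 bases before the start, and those of Egln3 and Ddit4 begin 229 and 187 bases before it. ACGTG was found in 16 of 29 list promoters (55.2%), against 4477 of 27025 promoters (16.6%). Among genes tested it was in 2856 of 14452 (19.8%), and among all genes called lower in 705 of 2888 (24.4%). The list was drawn up for glycolysis and the hypoxia response, so its share does not bear on the changes measured here. It was in 12 of 19 list genes that fell and in 2 of 3 that rose. Aldoc and Pfkp, with larger falls than Bnip3, held no ACGTG in this window.

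The integrated stress and amino acid response, the program run by Atf4, had 18 of 26 members lower and none higher, with a median of -0.46. Cebpb, at 0.28 (limma adjusted p = 0.052), was higher in all 48 h arrays, and 1 member was called higher under several other settings, among them median centring and quantile normalisation. Chac1, a glutathione-degrading enzyme, was at 10.35, 9.76 and 10.01 at 24 h and at 8.18, 8.16 and 8.69 at 48 h, a change of -1.70 ± 0.29 (SE, limma adjusted p = 6e-05). Slc7a3, a transporter of cationic amino acids, fell by 1.71, Stc2 by 1.37, the serine synthesis enzymes Psph and Psat1 by 1.09 and 0.87, the kinase-like inhibitor Trib3 by 1.00, asparagine synthetase Asns by 0.52 and Atf4 by 0.29. The groups did not overlap for Chac1, Slc7a3, Stc2 or Psph. With the covariate 17 were lower and the median was -0.96.

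The promoters of Chac1 and Asns are printed because they hold the C/EBP-ATF element that Atf4 binds, searched as TGATGNAA on both strands and shown in capitals. Chac1 lies on the plus strand at chr2:119350992-119351241 and Asns on the minus strand at chr6:7693210-7693459 (RefSeq, GRCm38.p6, 250 bases before the start).
Chac1: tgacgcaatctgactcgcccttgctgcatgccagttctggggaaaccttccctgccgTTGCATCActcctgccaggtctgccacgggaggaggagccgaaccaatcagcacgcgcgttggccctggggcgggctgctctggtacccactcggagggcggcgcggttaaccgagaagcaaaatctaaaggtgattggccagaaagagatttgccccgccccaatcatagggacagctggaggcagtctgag
Asns: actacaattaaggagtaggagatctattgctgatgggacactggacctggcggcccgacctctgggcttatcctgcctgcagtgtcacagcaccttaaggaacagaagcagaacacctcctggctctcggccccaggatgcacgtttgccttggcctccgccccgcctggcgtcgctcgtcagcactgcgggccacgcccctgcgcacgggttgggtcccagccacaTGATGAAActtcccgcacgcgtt
The match of Chac1, on the opposite strand, begins 193 bases before the start, and that of Asns 23 bases before it. The element was in 5 of 23 list promoters (21.7%) and in 954 of all 27025 (3.53%). Among genes tested it was in 351 of 14452 (2.43%), and among all genes called lower in 65 of 2888 (2.25%). Of the 16 list genes with a promoter that fell, 2 held it. The list was drawn up for the integrated stress and amino acid response, so its share does not bear on the changes measured here.

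The lists of growth and metabolism had small changes. Of 33 genes of DNA replication and mitosis 16 fell and 1 rose, with a median of -0.14 and no change beyond -0.30 (Orc1). Of 27 genes of cholesterol and fatty acid synthesis 15 fell and 1 rose, led by Insig1 (-0.87), a sterol sensor, and with the covariate 4 were lower and none higher. Of 34 ribosome biogenesis genes 13 fell and none rose, and of 17 genes for metallothioneins and oxidative stress 8 fell and 2 rose, among them Mt1 (-0.82) and Mt2 (-0.72). Of 20 cytosolic ribosomal protein genes 1 fell, of 30 genes of oxidative phosphorylation 5 fell, and of 29 proteasome genes 3 fell and 1 rose, shares below that of all genes. With the covariate limma called none of the genes of replication, ribosome biogenesis, ribosomal proteins, oxidative phosphorylation or the proteasome. Over all 18193 genes that fit called 763 higher and 705 lower, a share at which lists of this size would hold few calls. At an unadjusted p under 0.05 that fit had 1 replication gene and 6 ribosome biogenesis genes lower and none in the other 3 lists. The share of all genes at that cutoff was not counted, so these counts cannot be set against it.

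Inhibitors of the cell cycle moved apart. Cdkn2b (p15) was at 7.49, 8.05 and 7.98 at 24 h and at 10.03, 9.80 and 10.23 at 48 h, a rise of 2.18 ± 0.11 (SE, limma adjusted p = 4.2e-13). Cdkn2a and Cdkn1a (p21) rose by 1.33 and 0.84, and Cdkn1a had a change of 0.07 with the fibroblast covariate. Cdkn1c (p57), an imprinted gene, fell from 11.70, 11.59 and 11.69 to 10.36, 10.53 and 10.49, by 1.20 ± 0.13 (SE, limma adjusted p = 9.2e-08). Myc and Mycn rose by 0.94 and 0.75. Among 22 imprinted genes 11 rose and 4 fell (median 0.36), and with the covariate 9 were higher and 2 lower. The growth factor Igf2 stood at 10.74, 10.72 and 10.95 at 24 h and at 13.08, 13.33 and 12.91 at 48 h, a rise of 2.30 ± 0.11 (SE, limma adjusted p = 2.1e-13), or 4.94-fold. Peg3 rose by 1.82, Plagl1 by 1.65 and Dlk1 by 1.04, while Phlda2, a growth inhibitor of the placenta, fell by 1.87.

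**Figure D5:**
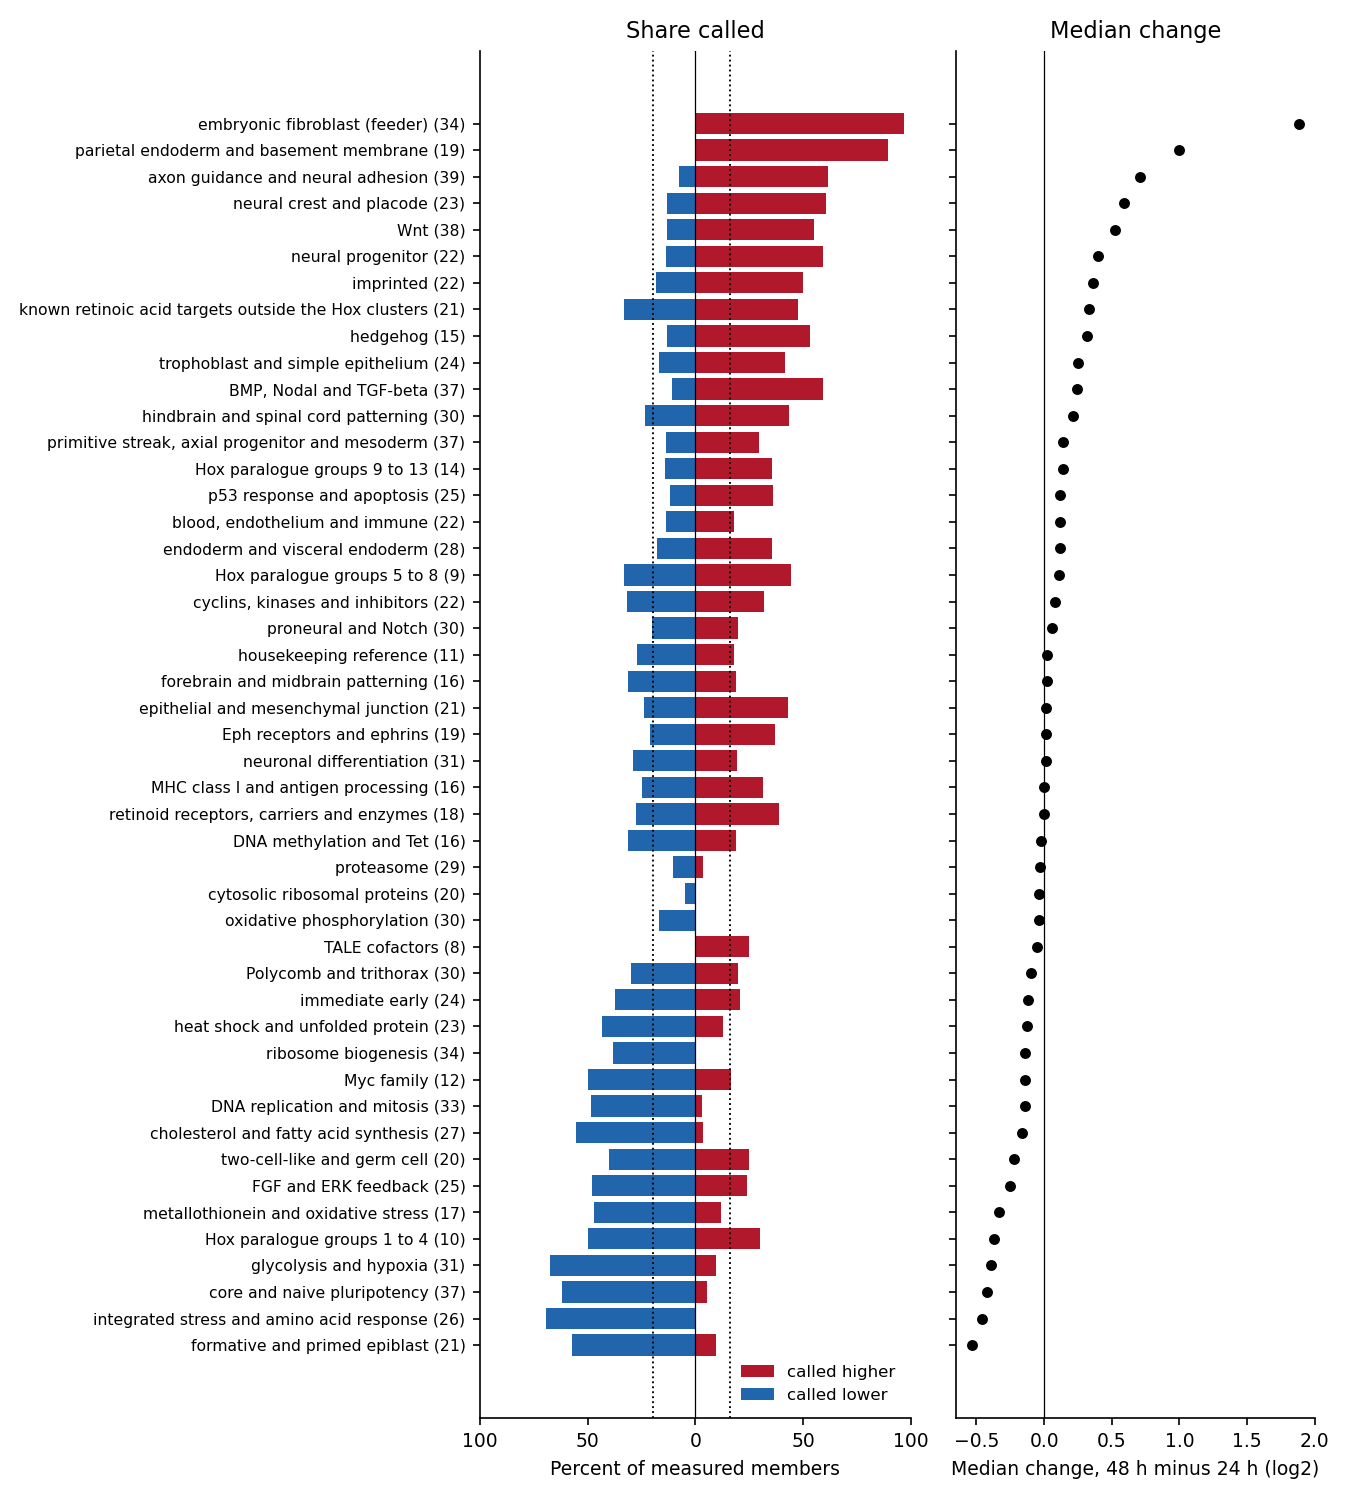
For each of 47 gene lists (number of measured members in brackets), the share of members that limma called higher (red) or lower (blue) at 48 h than at 24 h, left, and the median log2 change, right. Dotted lines give the shares over all genes, 16.0% higher and 19.8% lower; the fibroblast list is at the top with a median of 1.88 and the formative and primed epiblast list at the bottom with -0.53.

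The second day can be parted at 36 h. Between 24 h and 36 h limma called 2480 genes (13.6%), 1609 higher (8.84%) and 871 lower (4.79%). Between 36 h and 48 h it called 4015 (22.1%), 1380 higher (7.59%) and 2635 lower (14.5%). The change from 36 h to 48 h differed from that of 24 h to 36 h in 935 genes by limma (5.14%), with 150 above 0 (0.824%) and 785 below (4.31%). This contrast counts the 36 h arrays in both changes with opposite sign, so a shift of 1 of them moves both. After centring each array on its median the split was 295 above and 446 below, and after quantile normalisation 229 and 543, and the count was 290 without 36 h B, 612 without 24 h D and 621 without 36 h A. Hoxc8 made most of its rise early: its mean was 7.12 at 24 h, 9.72 at 36 h and 10.44 at 48 h, and the changes differed by -1.88 ± 0.37 (SE, limma adjusted p = 0.0032). Hoxb9 had means of 9.87 at 24 h, 10.26 at 36 h and 9.28 at 48 h, and Hoxb1 had means of 12.98, 12.90 and 11.91 (differences of -1.37 and -0.92, limma adjusted p = 0.0029 and 0.012).

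In the list of immediate early genes, the quick transcriptional response to growth factors, 14 of 24 members had a difference below 0 and none above. Limma called 14 of the 24 higher at 36 h than at 24 h and 14 lower at 48 h than at 36 h, and 11 were called in both. Egr1 was at 13.30, 13.61 and 13.57 at 24 h, at 13.98, 14.09 and 14.01 at 36 h, and at 12.34, 12.20 and 12.37 at 48 h. Its change from 24 h to 48 h was -1.19, with all 48 h arrays below. Of 27 cholesterol and fatty acid synthesis genes 15 had a difference below 0 and none above; 5 were called higher at 36 h than at 24 h, 23 lower at 48 h than at 36 h, and 4 in both. Inhba rose in the later part of the day, by 2.41 from 36 h to 48 h, and its change before it was -0.40 and was not called. Epha3 was under 4.73 at 24 h and 36 h and rose by at least 0.96 from 36 h to 48 h.

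The third day was set against the second by subtracting the change from 24 h to 48 h from that of 48 h to 72 h. The 48 h arrays enter both with opposite sign. From 48 h to 72 h itself, 2856 genes were called (15.7%), 1772 higher (9.74%) and 1084 lower (5.96%). Limma called 2656 genes (14.6%), 1583 above 0 (8.70%) and 1073 below (5.90%), and after centring on array medians the split was 1200 and 1533. Without 48 h A the count was 1755 and without 48 h C 1661. Hoxc8 and Col3a1 were not called between 48 h and 72 h, with means of 10.45 and 13.30 at 72 h, and Hoxc10, Igf2, Nr2f2 and Crispld2 rose on, to 10.07, 14.30, 11.68 and 13.26. Of the fibroblast list, 28 of 34 had a difference below 0 and none above. Among the falls, Trh and Gli1 fell on, to 8.50 and 7.06 at 72 h, and Tdgf1 and Pou5f1, at 10.13 and 11.44, were not called between 48 h and 72 h. Cdkn1c rose to 11.73, and its difference was 2.47 (limma adjusted p = 2.3e-07).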

How the data were processed

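The 30 arrays are Affymetrix mouse arrays of KH2 cells. The deposited values are log2 levels that the authors had normalised between arrays, 1 column per array; limma 3.8.3 is named per the submitters' processing notes, and the background and normalisation methods are not given in the sources used here. Of 45101 probe sets, 34945 named 1 gene symbol, 9160 named none, 932 named several and 64 were controls. The probe set with the highest mean over all arrays stood for each of 18193 genes. Contrasts were fitted with limma 3.58.1 in R 4.3.3 on all 30 arrays in 10 groups (residual df 20), with Benjamini-Hochberg adjustment over all genes and a threshold of 0.05. The fit was tested on simulated data. The alternatives were other normalisations, filters, probe set rules, priors, array sets and leaving out each array; the fibroblast covariate was chosen after seeing the data. Members and lists were chosen with earlier results of these data known.

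Named genes were the 12 largest rises and falls among called genes with no overlap between arrays, up to 4 members of each list with the largest change, every measured retinoid, Hox, TALE, Cdx and pluripotency gene, and the 5 largest of each sign in both difference contrasts. Other list members in the text, such as Asns, Atf4, Car9, Nodal, Shh, Sox1, Pax6 and Tubb3, were chosen after their values were seen. Promoters came from RefSeq (GRCm38.p6).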

Additional observations from a re-analysis of the deposited data

Results flagged for a closer look

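These genes had the largest differences, among called genes, between the third and the second day, or between the later and the earlier part of the second day (limma, Benjamini-Hochberg adjusted). Both differences use the arrays in the middle, 48 h or 36 h, in both changes with opposite sign.

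Between the third and the second day the difference was above 0 for Tmem255a (3.14, adjusted p = 1e-06), A2m (3.13, adjusted p = 2.5e-06), Nefm, a neurofilament gene (3.04, adjusted p = 8.6e-06), Egln3 (2.74, adjusted p = 5.9e-05) and Ndufa4l2 (2.73, adjusted p = 0.00029). It was below 0 for Ogn (-3.96, adjusted p = 0.0015), C1qtnf3 (-3.74, adjusted p = 3.3e-05), Postn (-3.50, adjusted p = 0.019), Lox (-3.36, adjusted p = 0.0017) and Col6a3 (-3.32, adjusted p = 0.033). Postn, Lox and Col6a3 are in the fibroblast list. C1qtnf3 at 24 h, and Tmem255a at 24 h, 36 h and 48 h, were under 4.73 log2, so their values are measured differences with no place in the order; with lower levels set to 4.73, Tmem255a rose by at least 2.73 from 48 h to 72 h.

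Between the later and the earlier part of the second day the difference was above 0 for Inhba (2.81, adjusted p = 0.0082), Inhbb (2.57, adjusted p = 0.0014), Epha3 (2.31, adjusted p = 0.00054), Mcpt8 (2.07, adjusted p = 0.0064) and Olr1 (2.03, adjusted p = 0.012). It was below 0 for Egr2 (-3.03, adjusted p = 1.2e-06), Egr1 (-2.25, adjusted p = 7e-06), Meox1 (-2.15, adjusted p = 1.3e-08), Lhx1 (-2.13, adjusted p = 1.2e-05) and Lmo2 (-2.07, adjusted p = 1.6e-06). Epha3 and Olr1 were under 4.73 log2 at 24 h and 36 h, so their values have no place in the order either; from 36 h to 48 h they rose by at least 0.96 and 1.65.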

How the results depend on the processing

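The count of genes called between 24 h and 48 h lay between 5142 and 7351 under the other settings without the covariate, 5515 to 6313 of them when 1 array was left out, against 6515. It was 1468 with the fibroblast covariate. The third day against the second gave 2656 genes, 1722 with the later array set alone, 1721 with only the groups compared, 777 with the covariate and 1661 to 2755 when 1 array was left out. The later against the earlier part of the second day gave 935 genes, 477 with the later set alone, 397 with only the groups compared and 290 to 1105 when 1 array was left out. Of 235 called genes chosen by the naming rule, 193 stayed called in every setting other than the covariate, and with it 138 stayed called, 82 did not and 15 turned their sign. Directions turned for Stat3 (-0.11) and Pes1 (0.06) with the mean of all probe sets, Tmem255a (0) without lettered probe sets, and Hoxa5 (0.06), Nolc1 (0) and Psmd3 (0.04) with 24 h A to F as 1 group. With the covariate they turned for Postn (-0.82), Lox (-0.12), Col1a1 (-0.67), Pdgfra (-0.23), Nr5a2 (0.01), Dppa3 (0.04), Dppa4 (0.04), En1 (-0.13), Prrx1 (-0.19), Thbd (-0.56), Inhba (-0.06), Sema3a (-0.02), Gadd45g (-0.03), Kif11 (0.01) and Col6a3 (-2.31), and, for the third day against the second, Postn (0.74) and Col6a3 (1.36). Postn, Lox, Col1a1, Prrx1 and Col6a3 belong to the list whose mean is the covariate, and the average change of that list is fixed in advance. The cause of the turns was not tested. The number of arrays, 3 a group, limits the precision. No paired analysis was possible because the 48 h arrays carry the letters A to C and the 24 h arrays D to F.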
